A study of Mus musculus with 2 samples.

Results

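The genes described here are the 10 mouse genes of the insulin-like growth factor (IGF) family named Igf1, Igf2, Igf1r, Igf2r, Igfbp2, Igfbp3, Igfbp4, Igfbp5, Igfbp6 and Igfbp7, taken by symbol from both count tables. They comprise 2 ligands, 2 receptors and 6 binding proteins, and each symbol matched 1 of the 52636 genes tabulated. The tables came from 2 RNA-seq libraries, 1 labelled wild type (WT) and 1 labelled miR-29a knockout (KO). Both were labelled as retina of C57BL/6 mice aged 8 weeks, and each was made from the pooled retinas of 3 mice. The labels do not describe the knockout allele, the sex of the mice or any treatment. The study asked how transcripts differ when the microRNA miR-29a is missing. With 1 library per group every difference below is between these 2 libraries, and the spread between mice is unknown.

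IGF1 and IGF2 are secreted growth factors that activate the tyrosine kinase receptor IGF1R, which signals for growth and survival. IGF2R has no kinase activity and carries IGF2 into the cell for breakdown. The binding proteins hold the ligands outside the cell, extend their life and either block or release them for the receptor, often after cleavage by proteases. In the eye the IGF system is known for its role in retinal vessel growth and in the survival of retinal neurons.

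A microRNA represses transcripts that pair with its seed, bases 2 to 8. The sequences below show the seed of miR-29a-3p in capitals, beside those of its relatives miR-29b-3p and miR-29c-3p, which share the seed AGCACCA. miR-29a is encoded on chromosome 6 and miR-29c on chromosome 1 (RefSeq, GRCm38.p6).
miR-29a-3p: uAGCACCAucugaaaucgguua
miR-29b-3p: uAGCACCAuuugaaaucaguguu
miR-29c-3p: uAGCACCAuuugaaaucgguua

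The matching heptamer TGGTGCT, searched on the transcript strand of the longest annotated 3' UTR, occurred in 2 of the 10 genes, Igf1 and Igfbp4. It occurred in 16.1% of the 11585 protein-coding genes searched, whose median 3' UTR length was 1225 bases. The sites are shown with the heptamer in capitals because they are the places where the seed could pair. Both Igf1 matches lie in the 3' UTR of Igf1-202, which is 6308 bases long, on the plus strand of chromosome 10 (GRCm38), at 87931671 to 87931677 and at 87934305 to 87934311, and both are followed by an A. The Igfbp4 matches lie close together in the 3' UTR of Igfbp4-201 (2813 bases), on the plus strand of chromosome 11, at 99053223 to 99053229 and 99053233 to 99053239, and neither is followed by an A.
Igf1, first match: tttttagtacaaTGGTGCTattttgtagtt
Igf1, second match: gctacgccaatgTGGTGCTattgtttcttt
Igfbp4, both matches: tgtcaccTGGTGCTcacTGGTGCTctctcc

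The log2 ratios of KO over WT were 0.42 for Igf1 and 0.20 for Igfbp4. For the 8 genes without the heptamer they ran from -1.36 to 0.85. Over all genes searched the median was 0.14 with the heptamer and 0.05 without it. These medians were not corrected for GC content or length, so the part of either in their difference was not tested. A match of letters is a description of the sequence and does not show that the site is used.

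The libraries held 26805902 (WT) and 24876925 (KO) counts, and several facts about them bear on every comparison. A count of 0 allows up to 0.112 and 0.121 CPM (counts scaled to the library total). The 10 defining markers of retinal neurons and Mueller glia summed to 1.08 CPM in the WT library and 0.764 CPM in the KO library, and Grm6, Pou4f2, Gad1, Lhx1 and Aqp4 were at 0 in both, so the marker content goes against the tissue named in the labels. Of 10 fibroblast markers, none of them an IGF family gene, 9 passed the minimum of 50 counts in the higher library, and the list summed to 8756 and 10290 CPM, ranging from 0 for Tcf21 to 2757 CPM and 2734 CPM. The 12 macrophage markers summed to 295 and 746 CPM (0.373 to 127 CPM in WT, 0.804 to 129.9 CPM in KO). Of the 11 past the minimum, 10 were at least 2-fold higher in KO, beside 4.47% of all genes past the minimum. The other, Cd14, was lower (log2 ratio -0.16). The 10 endothelial markers summed to 129.5 and 141 CPM (0.298 to 84.9 CPM and 2.29 to 74.1 CPM), with 5 at least 2-fold higher in KO, beside the same 4.47%. The 10 pericyte and smooth muscle markers summed to 161 and 199 CPM (0.149 to 81.3 CPM and 0.281 to 131 CPM). None of the macrophage, endothelial or mural markers was at 0. Xist had 4288 counts in WT and 0 in KO, so the pools also differ in sex chromosome expression. The part of these differences in the values below was not tested, and in bulk RNA fewer cells of a type and less RNA per cell cannot be told apart.

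All 10 IGF family genes passed the minimum, with 577 to 146596 counts in WT and 723 to 155885 in KO. As a family they took 0.887% of all counts in WT and 0.886% in KO. Behind that equal total the genes went different ways. Igf2 was lower in KO by more than 2-fold, the only one of the 10 past that size in either direction, against 2.82% of all 12382 genes that were lower by as much and 4.47% that were higher. At 1.5-fold 2 were lower (Igf2 and Igfbp6; 8.88% of all genes) and 2 were higher (Igfbp3 and Igfbp7; 13.3% of all genes). The 95% counting interval of the fold lay above 1 for 6 genes and below 1 for 2, against 40.3% and 31.2% of all genes. These intervals cover counting error only and treat reads as independent, so they say at best how exactly each library was counted and nothing about mice. The median log2 ratio of the 10 was 0.14, and that of all genes past the minimum 0.06.

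**Figure D1:**
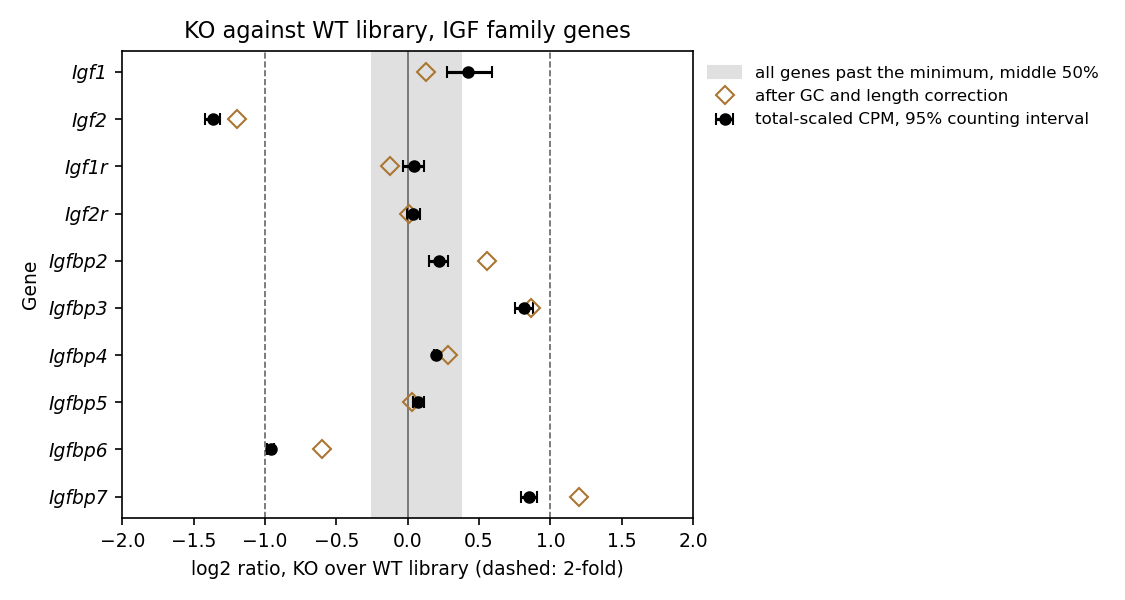
Log2 ratio of KO over WT (x axis) for each of the 10 genes (y axis), with 1 library per group; black points are total-scaled CPM with 95% counting intervals, open diamonds the values after a correction for GC content and length, and the grey band the middle 50% of all genes. Igf2 lies at -1.36 and Igfbp6 at -0.96, Igfbp3 and Igfbp7 lie at 0.81 and 0.85, and both receptors lie close to 0.

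Of the ligands, Igf2 was the abundant one and the one that differed most. Igf2 (ENSMUSG00000048583, chromosome 7, 142650766 to 142666816, minus strand, GRCm38) is a fetal growth factor expressed from the paternal allele in most tissues. It had 11903 counts in WT (444 CPM, counting interval 436 to 452) and 4283 in KO (172 CPM, 167 to 177). The KO library was thus the low one, and the intervals lay far apart. The difference was 2.58-fold lower in KO (2.49 to 2.67), a log2 ratio of -1.36, at the 1.36 percentile of all genes tested. When genes were split into 10 bins by transcript GC content, those in the bin of Igf2 had a median log2 ratio of -0.20, and after correction for GC content and length the value for Igf2 was -1.19. Its antisense transcript Igf2os, which shares 98 exon bases with it, had 17 and 4 counts. The library kit does not mark strand, so reads of such pairs cannot be separated, but the antisense counts were small beside those of Igf2. The protein-coding gene model Gm49394, on the same strand, shares 3596 of the 5723 exon bases of Igf2. It was not analysed here, and reads from those bases cannot be assigned to one of the pair.

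Igf1 (ENSMUSG00000020053, chromosome 10, 87858265 to 87937042, plus strand) encodes the main growth hormone-dependent growth factor, which macrophages and mesenchymal cells also make. It had 577 counts in WT (21.5 CPM, 19.8 to 23.4) and 723 in KO (29.1 CPM, 27.0 to 31.3). The KO library was the higher one, by 1.35-fold (1.21 to 1.51), a log2 ratio of 0.42 at the 78.5 percentile. Igf1 had the lowest GC content of the 10 genes (38.0%), and genes in its GC bin had a median log2 ratio of 0.31. After the correction for GC content and length its log2 ratio was 0.12. Of the 11 macrophage markers past the minimum, 10 had a log2 ratio above 0 and 1 below, with a median of 1.90. The one below was Cd14 (-0.16), the most abundant of the list in WT at 127 CPM. The part of the macrophage markers in the Igf1 value was not tested.

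Levels per length, compared between genes with the authors' FPKM (fragments per length of gene and library size), put Igf2 far above Igf1. Igf2 stood at 82.1 FPKM in WT and 30.6 in KO, and Igf1 at 2.30 and 2.99. The ratio of Igf2 to Igf1 was 35.7 in WT (counting interval 32.8 to 38.8) and 10.3 in KO (9.47 to 11.1), which is 3.48-fold lower. This ratio is formed within a library, so no scaling between libraries enters it. The ratio was not corrected for GC content or length. That correction brought the 2 log2 ratios closer together, from -1.36 to -1.19 for Igf2 and from 0.42 to 0.12 for Igf1.

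The receptors differed between the libraries by less than counting error. Igf1r (ENSMUSG00000005533, chromosome 7, 67952827 to 68233668, plus strand), the signalling receptor, had 3100 counts in WT (116 CPM, 112 to 119.8) and 2963 in KO (119 CPM, 115 to 123). The intervals overlapped, with a fold of 1.03 (0.979 to 1.08). Igf2r (ENSMUSG00000023830, chromosome 17, 12682406 to 12769664, minus strand), the clearance receptor for IGF2 and for mannose 6-phosphate proteins, had 7304 counts (272 CPM, 266 to 279) and 6968 (280.1 CPM, 274 to 287). Its fold was also 1.03 (0.995 to 1.06), so counting error alone covers the difference for both genes, and a difference of more than 10% in either direction lies outside both intervals. The sign of both values turned negative with median-of-ratios scaling (-0.02 for Igf1r and -0.03 for Igf2r) and with FPKM. Airn, the noncoding RNA transcribed antisense through Igf2r with no shared exon bases, had 108 and 73 counts.

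Per length Igf2r stood at 30.5 FPKM in WT and 30.2 in KO, and Igf1r at 7.28 and 7.22. The ratio of the clearance receptor to the signalling receptor was 4.19 in WT (4.02 to 4.37) and 4.18 in KO (4.01 to 4.37). The ratio of Igf2 to Igf2r transcripts was 2.69 in WT (2.61 to 2.77) and 1.01 in KO (0.976 to 1.05). Igf2 thus exceeded its clearance receptor in WT, and the pair could not be told apart in KO at this depth.

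The binding proteins made up most of the family's transcripts, and their mix differed between the libraries. Igfbp6 (ENSMUSG00000023046, chromosome 15, 102144362 to 102149511, plus strand) encodes the binding protein that prefers IGF2 over IGF1. It had 45157 counts in WT (1685 CPM, 1669 to 1700.2) and 21542 in KO (866 CPM, 854 to 878). The KO value was 1.95-fold lower (1.91 to 1.98), a log2 ratio of -0.96 at the 3.07 percentile, just short of the 2-fold threshold. Median-of-ratios scaling gave -1.03 and the authors' FPKM -1.02, past the threshold, where 3.21% and 2.33% of all genes were lower by as much. Genes in the GC bin of Igfbp6 (60.7% GC) had a median of -0.31, and its value after the GC and length correction was -0.60. Of the 9 fibroblast markers past the minimum, 5 had a log2 ratio above 0 and 4 below, with a median of 0.10. They ran from -2.68 for Pi16 (2003 and 279 counts) to 0.93 for Dcn. The part of the fibroblast markers in the Igfbp6 value was not tested.

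Igfbp3 and Igfbp7 went the other way. Igfbp3 (ENSMUSG00000020427, chromosome 11, 7206086 to 7213923, minus strand), the main carrier of IGFs in blood, had 3422 counts in WT (128 CPM, 123 to 132) and 5584 in KO (224 CPM, 219 to 230.4). It was 1.76-fold higher in KO (1.68 to 1.84), at the 93.2 percentile. Igfbp7 (ENSMUSG00000036256, chromosome 5, 77349240 to 77408041, minus strand) encodes a member with weak IGF binding that is found in vascular basement membranes. It had 4169 counts in WT (156 CPM, 151 to 160.3) and 6969 in KO (280.1 CPM, 274 to 287), a value 1.801-fold higher in KO (1.73 to 1.87) at the 93.7 percentile. For both genes the KO library was the high one and the intervals did not overlap. Genes with the GC content of Igfbp7 (58.8%) had a median log2 ratio of -0.31, opposite to its own 0.85. The corrected value was 1.20, past 2-fold (3.59% of all genes by that measure), and 0.86 for Igfbp3. Igfbp7 shares 85 exon bases with Polr2b, a widely expressed polymerase subunit gene on the other strand with 1276 and 1508 counts, so a share of its reads is uncertain. Of the 10 endothelial markers 7 had a log2 ratio above 0 and 3 below, with a median of 1.08. Those below were Egfl7 (-0.52), Emcn (-0.25) and Eng (-0.19), and Eng was the most abundant at 84.9 and 74.1 CPM. The part of these markers in the Igfbp7 value was not tested.

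The other binding proteins differed little. Igfbp4 (ENSMUSG00000017493, chromosome 11, 99041244 to 99054392, plus strand), which mainly blocks IGF action until it is cleaved, was the 8th most counted gene of all in WT and the 7th in KO, at 146596 counts (5469 CPM, 5441 to 5497) and 155885 (6266 CPM, 6235 to 6297). It was 1.15-fold higher in KO (1.14 to 1.15), so that the intervals lay apart but the percentile among all genes was only 61.7. Igfbp2 (ENSMUSG00000039323, chromosome 1, 72824503 to 72852474, plus strand), which can also bind integrins, had 3365 counts (126 CPM, 121 to 129.8) and 3630 (146 CPM, 141 to 151), a fold of 1.16 (1.11 to 1.22). Its GC content was the highest of the 10 (62.1%), and the GC and length correction moved its log2 ratio from 0.22 to 0.55. Igfbp5 (ENSMUSG00000026185, chromosome 1, 72857932 to 72874884, minus strand), which binds extracellular matrix, had 12177 counts (454 CPM, 446 to 462) and 11908 (479 CPM, 470.1 to 487). Its fold of 1.05 (1.03 to 1.08) was the smallest of the 6, and the log2 ratio was 0.08.

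Some family genes are neighbours in the genome. Igfbp2 and Igfbp5 lie 5457 bp apart on chromosome 1 and were both abundant. Igfbp3 lies 3539 bp from Igfbp1, the insulin-regulated binding protein of liver, which had 0 counts in both libraries.

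**Figure D2:**
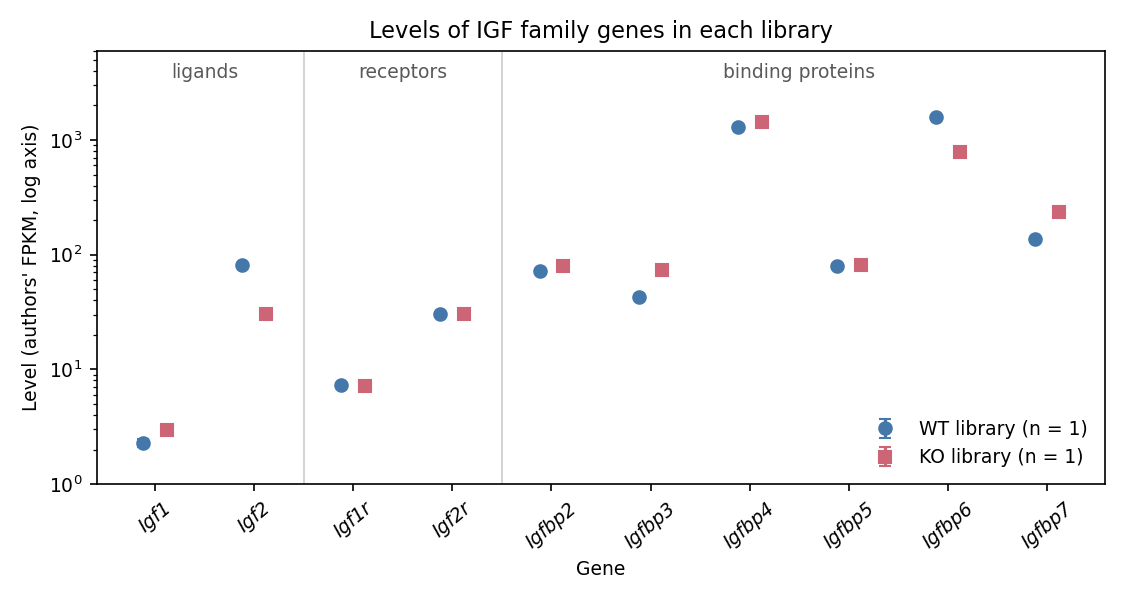
Level of each gene (x axis, grouped by role) as the authors' FPKM on a log axis (y axis), with 1 WT library (circles) and 1 KO library (squares); bars are 95% counting intervals, mostly smaller than the symbols. Igfbp6 leads in WT at 1602 FPKM and Igfbp4 in KO at 1444 FPKM, and Igf1 is lowest in both at 2.30 and 2.99 FPKM.

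The order of the 10 levels per length changed at the top and in the middle. In WT the order was Igfbp6 (1602 FPKM), Igfbp4 (1310), Igfbp7 (136), Igf2 (82.1), Igfbp5 (80.0), Igfbp2 (71.9), Igfbp3 (43.1), Igf2r (30.5), Igf1r (7.28) and Igf1 (2.30). Among these only Igf2 and Igfbp5 had overlapping counting intervals. In KO the order was Igfbp4 (1444 FPKM), Igfbp6 (792), Igfbp7 (236), Igfbp5 (81.1), Igfbp2 (80.4), Igfbp3 (73.0), Igf2 (30.6), Igf2r (30.2), Igf1r (7.22) and Igf1 (2.99). Here Igfbp5 could not be told from Igfbp2, nor Igf2 from Igf2r. Igfbp6 and Igfbp4 exchanged first place, and Igf2 went from the fourth place to the seventh. Igfbp6 and Igfbp4 ranked 25 and 31 among all genes by FPKM in WT, and 58 and 21 in KO.

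Shares within the binding proteins do not depend on how the libraries were scaled, but the GC and length correction was not applied to them. Per length, Igfbp6 made up 49.4% of the 6 in WT (49.1 to 49.7) and 29.3% in KO (28.98 to 29.6), and Igfbp4 40.4% (40.2 to 40.6) and 53.3% (53.1 to 53.6). Igfbp7 went from 4.195% to 8.71% and Igfbp3 from 1.33% to 2.70%. Igfbp2 took 2.22% and 2.97%, and Igfbp5 2.47% and 2.996%. The FPKM-based intervals of WT and KO lay apart for each of the 6. By raw counts those of Igfbp5 overlapped (5.57% to 5.77% in WT and 5.69% to 5.896% in KO). The sum of the 6 was 3243 FPKM in WT and 2706 in KO, but 8016 and 8261 CPM, so its direction depends on the measure. FPKM and CPM differ both in the division by length and in the scaling total. The scaling total lowers the ratio of KO over WT of each of the 6 by 0.06 on the log2 scale. The part of length was not computed separately. Igfbp6 has the shortest gene model of the 6 (1112 exon bases against 4416 for Igfbp4) and weighs more per length.

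Binding protein transcripts outnumbered ligand transcripts per length by 38.4 to 1 in WT (37.7 to 39.2) and by 80.6 to 1 in KO (78.3 to 82.9), a ratio 2.10 times as high. Without Igfbp6 the ratios were 19.5 and 57.0. The ligand sum, nearly all Igf2, was 84.4 FPKM in WT and 33.6 in KO. These are ratios of transcripts, and protein was not measured.

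**Figure D3:**
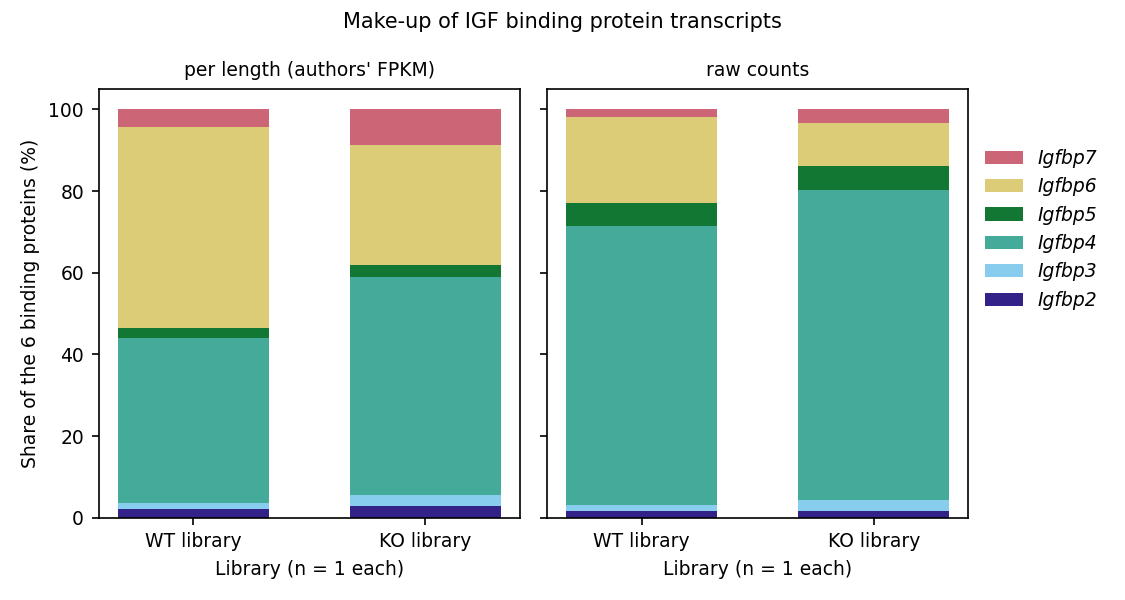
Share of each gene in the 6 binding proteins (y axis, percent) in the WT and KO library (x axis, 1 each), per length from the authors' FPKM (left) and from raw counts (right). Igfbp6 takes 49.4% and 29.3% per length and 21.01% and 10.5% of raw counts, and Igfbp4 is the largest by raw counts in both libraries.

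Other secreted parts of the system were examined as a list of 13, with insulin genes, further binding proteins, and the proteases and inhibitors that set how much IGF is free. Of these 6 passed the minimum, with 0 higher by 2-fold, 1 lower and 5 neither, beside 4.47% higher and 2.82% lower among all genes. The median log2 ratio was 0.27, beside 0.06 for all genes, and after the GC and length correction it was 0.16. The lower one was Stc2, a secreted inhibitor of the binding protein protease PAPP-A. It had 162 counts in WT and 64 in KO, a log2 ratio of -1.09, which was -0.81 with 2 CPM added and -0.79 by FPKM with 0.5 added. Stc1, the related inhibitor, had 470 and 625 counts (0.51). Pappa, the protease that cuts Igfbp4, is named for its role and after its values were seen, with 228 and 292 counts (0.44). Htra1, a secreted protease with an IGFBP-type domain, was the most counted of the list (5442 and 5867 counts, 0.22), followed by its relative Htra3 (1664 and 983 counts, -0.65). Adam12, another protease that can cut binding proteins, had 346 and 408 counts (0.33). Over the alternative settings Stc1 ran from 0.16 to 0.52 and Htra3 from -0.71 to -0.32. Igfbp1, Igfbpl1, Ins1 and Adam28 were at 0 in both libraries.

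Secreted proteins that carry an IGFBP-type domain without being classical binding proteins formed a list of 9, of which 8 passed the minimum. Of these 0 were higher by 2-fold and 1 was lower, beside the same 4.47% and 2.82% of all genes. The median log2 ratio was 0.18, with 5 values above 0 and 3 below, and after the GC and length correction it was 0.01, with 4 above and 4 below. The lower one was Kazald1, which had 1082 counts in WT and 372 in KO, 2.70-fold lower (2.40 to 3.04). The matricellular genes Cyr61 (12240 and 10518 counts, log2 ratio -0.11) and Ctgf (9817 and 10780, 0.24) were the most counted in WT. Esm1, which encodes the proteoglycan endocan, had 6733 and 10306 counts (0.72), and Nov, a matricellular relative of Ctgf, 5941 and 8737 (0.66). Kazald1 thus stood on the low side with Igf2 and Igfbp6, and Esm1 and Nov on the high side with Igfbp3 and Igfbp7. Over the alternative settings Kazald1 ran from -1.47 to -1.06, Esm1 from 0.41 to 0.72 and Nov from 0.42 to 0.66.

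Igf2 belongs to a set of imprinted growth genes, and the list for that set and for the proteins that bind Igf2 mRNA held 8 genes. Of these 6 passed the minimum, with 0 higher by 2-fold and 1 lower (4.47% and 2.82% of all genes), and 5 of the 6 log2 ratios were below 0, with a median of -0.57 against 0.06 for all genes. H19, the noncoding RNA that lies 72622 bp from Igf2 (chromosome 7, 142575529 to 142578143) and shares its enhancers, had 87793 counts in WT and 48644 in KO, 1.67-fold lower (1.66 to 1.69). The log2 ratio of H19 was -0.74, and ran from -0.81 to -0.53 over the alternative settings. Cdkn1c, a maternally expressed inhibitor of cell cycle kinases, had 9223 and 3689 counts, 2.32-fold lower (2.23 to 2.41), with a corrected log2 ratio of -0.89. Plagl1, an imprinted transcription factor gene, had 1641 and 839 counts (log2 ratio -0.85, corrected -1.04, past 2-fold), and Grb10, an imprinted adaptor that restrains the receptor, 3219 and 2296 (-0.38). The list was chosen with earlier results of these libraries known, so its direction is no independent evidence.

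**Figure D4:**
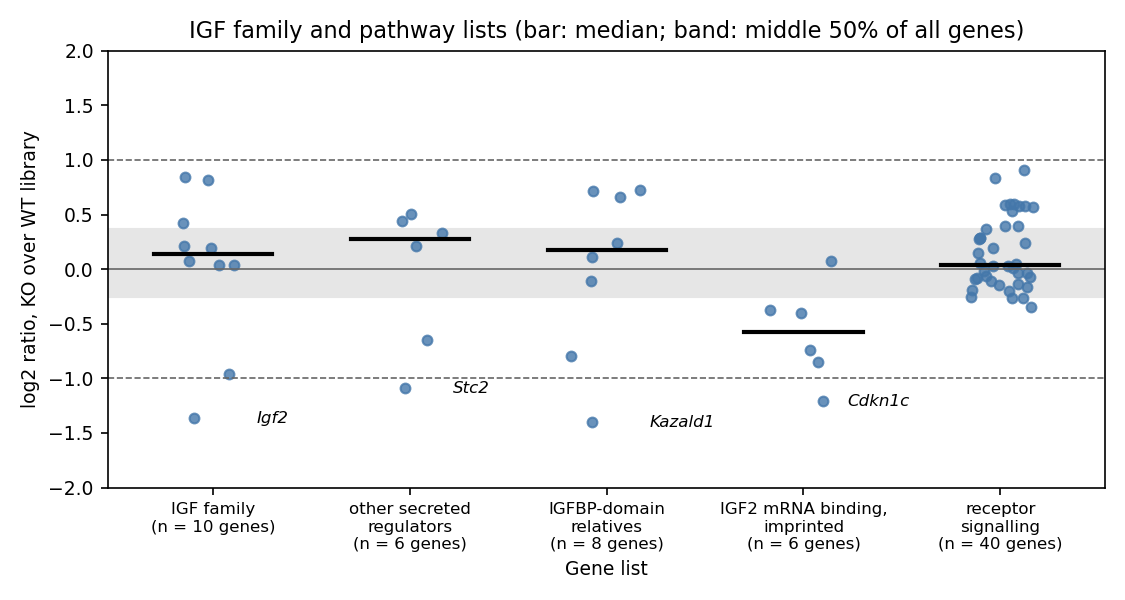
Log2 ratio of KO over WT (y axis) for genes past the minimum in the IGF family and 4 pathway lists (x axis), 1 point per gene, with the median as a bar and the middle 50% of all genes as a band. No gene lies above 1, and Igf2, Stc2, Kazald1 and Cdkn1c lie below -1.

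Inside the cell, the 42 genes of the insulin receptor, its adaptors and the PI3K, AKT, mTOR and MAPK steps had a median log2 ratio near that of all genes. Of these 40 passed the minimum and 0 were higher or lower by 2-fold, beside 4.47% higher and 2.82% lower among all genes. The values ran from -0.35 to 0.90 with a median of 0.04, beside 0.06 for all genes. At 1.5-fold 5 of the 40 were higher and 0 lower, beside 13.3% and 8.88% of all genes. Positive log2 ratios numbered 23 and negative ones 17, but 18 and 22 with median-of-ratios scaling. The adaptor Shc1 was the most counted (13125 and 9556 counts, -0.35). The kinase gene Akt1 had 12171 and 11038 counts (-0.03), Mapk3 11069 and 8961 (-0.20) and Akt2 7898 and 6429 (-0.19). Of these 4, Akt1 and Mapk3 turned positive with the GC and length correction (0.29 and 0.03). Transcript levels do not show how active these kinases were.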

How the data were processed

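Per the labels' protocols, total RNA was depleted of ribosomal RNA, prepared with a NEBNext Ultra RNA kit and sequenced on an Illumina HiSeq instrument. HISAT2 and the build mm10 (GRCm38) are named in the submitters' processing notes. The counter, annotation release and strand setting were not given in the sources used here. Each deposited table lists raw read counts and FPKM by gene, per the file headers. The deposited FPKM used the union of annotated exons as length for 87.1% of genes with over 100 counts (within 1 base, GENCODE M21) and a scaling total equal to 94.5% (WT) and 98.3% (KO) of the counts, as worked out from the values.

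Counts were divided by the library total to give CPM. The log2 ratio was taken after adding 0.5 CPM, and genes needed at least 50 counts in one library. Folds carry no addition and have 95% exact (Clopper-Pearson) counting intervals. Intervals of CPM are Clopper-Pearson, those of FPKM are scaled from them, and those of FPKM shares and ratios are normal approximations to counting error. All intervals cover counting error only and treat reads as independent. PCR reads without molecular identifiers are not independent, so the intervals may be too narrow even for counting error. A group of 1 library allows no test and no p-value. Left out were 4 genes with a discordant count and FPKM. 3' UTRs came from protein-coding GENCODE M21 transcripts and microRNAs from RefSeq. All 10 members were named, and of other lists those past 2-fold and up to 4 with the highest count. Members and lists were chosen with earlier results of these data known. Alternatives were TMM (edgeR 4.0.16) and median-of-ratios scaling, a total without the 20 most counted, mitochondrial and rRNA genes, 0.1 or 2 CPM added, a minimum of 200 counts or none, a 1.5-fold threshold, FPKM with 0.5 added, and subtraction of medians over 10 GC and 10 length bins. The procedure was run on counts simulated with counting error only. Such counts hold no spread between mice and no PCR copies, so that run says nothing about either. Versions were R 4.3.3, Python 3.11.15, scipy 1.17.1, pandas 2.3.3, matplotlib 3.10.9 and numpy 2.4.6.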

Additional observations from a re-analysis of the deposited data

How the results depend on the processing

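The depth of these libraries limits little for the IGF genes, the least counted of which had 577 counts, and the missing replicates limit everything. No paired analysis was possible because each group held 1 library. Under the 9 alternatives other than the fold threshold, 8 of the 10 members kept the sign of their log2 ratio, with ranges of -1.43 to -1.19 for Igf2, -1.03 to -0.60 for Igfbp6, 0.75 to 0.86 for Igfbp3, 0.78 to 1.20 for Igfbp7 and 0.12 to 0.43 for Igf1. Igf1r (-0.13 to 0.04) and Igf2r (-0.03 to 0.04) did not. A changed minimum count cannot alter these values. The scaling alternatives moved all genes by nearly the same amount, at most by -0.07 on the log2 scale. Those settings could therefore not turn the sign of the larger ratios. Members lower by 2-fold numbered 1, and 2 with median-of-ratios scaling, with the authors' FPKM and at 1.5-fold. Members higher by 2-fold numbered 0, then 1 with the GC and length correction and 2 at 1.5-fold. Signalling genes higher by 2-fold numbered 0, and 5 at 1.5-fold. By raw counts, which are not divided by length, the WT shares of the 6 binding proteins were 68.2% for Igfbp4, 21.01% for Igfbp6, 5.67% for Igfbp5, 1.94% for Igfbp7, 1.59% for Igfbp3 and 1.57% for Igfbp2. In KO they were 75.8%, 10.5%, 5.79%, 3.39%, 2.72% and 1.77%. The heptamer occurred in the same 2 members when 3' UTRs of any transcript were searched.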

Other observations

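The deposited FPKM values imply scaling totals of 25343366 for WT and 24449523 for KO. Their ratio is 1.04, against 1.08 for the totals of the count columns, so ratios of KO over WT taken from FPKM with no addition lie 0.06 lower on the log2 scale than ratios of CPM with no addition, apart from the 4 genes left out. For Igfbp6 that difference is enough to cross the 2-fold threshold.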
